A study of Mus musculus with 48 samples.

Results

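The genes of the insulin-like growth factor (IGF) axis and of insulin receptor signalling were followed in α and β cells of mouse islets. The set holds 10 genes chosen by symbol: the protease Pappa2, the ligands Igf1 and Igf2, the receptors Igf1r and Insr, the receptor substrates Irs1 and Irs2, and the binding proteins Igfbp3, Igfbp5 and Igfbp7. Each was found once among the 42713 genes of the count tables. After β-cell ablation with doxycycline, Pappa2 was 10.8 times as high in β cells, while Insr, Irs1 and Igfbp5 were lower, and no gene of the set changed past the threshold in α cells.

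The cells came from male mice aged 6 to 8 weeks. They carry the α-cell reporter ProGcg-Venus, the β-cell reporter RIP-Cherry, the clock reporter PER2::Luc and the pair Insulin-rtTA and TET-DTA, which together make diphtheria toxin A in cells with an active insulin promoter once doxycycline is given. DOX mice drank 300 mg doxycycline in water with 2% sucrose, and CTR mice drank the sucrose water alone. CTR mice carry the toxin transgenes too and no group had doxycycline without them, so the drug and the ablation cannot be told apart. All mice lived under 12 h of light and 12 h of dark with food at night only, from 10 days before the treatment on. For sampling across the day, part of the animals had been kept on inverted light and feeding cycles. The 4 conditions are DOX β, CTR β, DOX α and CTR α cells, sorted by fluorescence. Each was sampled at zeitgeber time (ZT, hours after lights on) 0, 4, 8, 12, 16 and 20 with 2 libraries per time, so that a condition has 12 libraries. The labels call these duplicates and do not say that they came from separate animals, so p-values measure the spread between libraries.

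IGF1 and IGF2 act through the IGF1 receptor, and insulin acts mainly through the insulin receptor. Both receptors are tyrosine kinases that phosphorylate the substrates IRS1 and IRS2, which recruit PI3K and so activate AKT and mTOR and hold FOXO factors in check. Outside the cell, IGFs are carried by binding proteins. The metalloprotease PAPP-A2 cleaves IGFBP3 and IGFBP5 and so frees IGF for the receptor. In β cells IRS2 is known for its role in maintaining β-cell mass in mice, and its gene responds to glucose and cyclic AMP.

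All 10 genes are annotated as protein coding, and the files place them on GRCm38. Pappa2 (158711727 to 158980490), Irs1 (82233101 to 82291416) and Igfbp5 (72857932 to 72874884) lie on the minus strand of chromosome 1. Igf2 (142650766 to 142666816, minus strand) and Igf1r (67952827 to 68233668, plus strand) lie on chromosome 7, and Insr (3122061 to 3279617) and Irs2 (10984681 to 11008458) on the minus strand of chromosome 8. Igf1 lies on the plus strand of chromosome 10 (87858265 to 87937042), Igfbp3 on the minus strand of chromosome 11 (7206086 to 7213923) and Igfbp7 on the minus strand of chromosome 5 (77349240 to 77408041). Counts cover whole genes, with exons and untranslated parts not separated.

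The libraries held 16.1 to 69.9 M estimated counts. They fall into an earlier sequencing run (20 libraries, 16.1 to 28.6 M, replicate 1 of ZT4 to ZT20) and a later one (28 libraries, 37.4 to 69.9 M, replicate 2 and both replicates of ZT0), by the dates in their titles. The sorted cells matched their labels by the genes of glucagon and insulin. Glucagon (Gcg) stood at 115 to 388 CPM (counts scaled to library size with TMM factors) in DOX β and 41.8 to 279 CPM in CTR β, against 221654 CPM or more in every α library. Ins2, an insulin gene, stood at 145776 CPM or more in every β library and at 2654 CPM or less in every α library. The α libraries also held RNA of a further islet hormone. Ppy, a marker of PP cells, averaged 28685 ± 6613 CPM (SD) in DOX α and 20790 ± 6191 CPM in CTR α. In DOX β and CTR β it averaged 108 ± 40.4 and 56.1 ± 25.9 CPM. The part of PP cells in the α-cell levels was not tested. RNA of other cell types was not equal between conditions. The summed CPM of 14 macrophage and dendritic markers was 125 to 1575 in DOX β (median 686) and 52.0 to 370 in CTR β (median 178), and 58.2 to 128 in DOX α and 42.3 to 123 in CTR α. Much of the sum in α libraries was C1qa, at 50.5 ± 10.6 CPM in DOX α and 52.1 ± 7.21 CPM in CTR α. Its partner C1qb averaged 1.33 CPM in DOX α and 0.644 CPM in CTR α. The sum of 8 acinar markers reached 530 to 4782 CPM in the DOX β libraries ZT0 replicate 1, ZT8 replicate 2 and ZT16 replicate 2, against at most 253 CPM in CTR β. Without these 3 libraries the same number of members, 7, passed the threshold for DOX against CTR in β cells. Acinar RNA was not particular to DOX β: the sum was 5.59 to 6849 CPM in DOX α (median 108) and 6.32 to 887 CPM in CTR α (median 205). The part of acinar RNA in the α-cell levels was not tested. These are bulk samples, in which fewer cells of a type and less RNA per cell cannot be told apart.

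Levels per gene length place the 10 genes in each condition (mean CPM per kb ± SD, n = 12). In DOX β cells Pappa2 came first at 81.1 ± 35.3, before Igfbp7 at 59.1 ± 12.1 and Irs2 at 12.96 ± 5.89. Igf1r (5.67 ± 2.60), Insr (4.14 ± 0.949) and Igf2 (3.97 ± 3.29) followed, then Irs1 (1.26 ± 0.263), Igfbp5 (0.598 ± 0.379), Igf1 (0.395 ± 0.319) and Igfbp3 (0.0256 ± 0.0323). In CTR β cells Igfbp7 led at 71.5 ± 15.6 and Pappa2 stood at 7.55 ± 5.36, behind Irs2 at 9.91 ± 4.05. There Igf1r stood at 6.82 ± 2.18, Insr at 5.07 ± 0.634, Igf2 at 5.03 ± 3.71, Igfbp5 at 1.88 ± 1.05, Irs1 at 1.68 ± 0.256, Igf1 at 0.0651 ± 0.0451 and Igfbp3 at 0.0319 ± 0.0359. The mean ± SD ranges of most neighbours in these orders overlapped. In DOX β the exceptions were Igfbp7 over Irs2, Irs1 over Igfbp5 and Igf1 over Igfbp3, and in CTR β Igfbp7 over Irs2 and Irs1 over Igf1.

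In α cells the order began as in DOX β cells, with Pappa2, Igfbp7 and Irs2, and differed from it further down. Pappa2 came first at 253 ± 64.3 CPM per kb in DOX α and 242 ± 51.4 in CTR α. Igfbp7 came next at 182 ± 34.8 in DOX α and 209 ± 49.1 in CTR α, and the mean ± SD ranges of these neighbours overlapped. Irs2, Insr, Igf1r, Igfbp5, Irs1, Igf2, Igfbp3 and Igf1 followed in this order in both. Irs2 stood at 15.8 ± 6.23 in DOX α and 14.8 ± 6.17 in CTR α, and Insr at 4.41 ± 0.812 in DOX α and 4.27 ± 0.447 in CTR α. Igf1r stood at 2.15 ± 0.389 and 2.11 ± 0.400, Igfbp5 at 1.68 ± 0.899 and 1.95 ± 0.803, Irs1 at 1.09 ± 0.299 and 0.984 ± 0.155 and Igf2 at 0.422 ± 0.109 and 0.421 ± 0.118, in DOX α and CTR α cells. The mean ± SD ranges of Igf1r and Igfbp5, and of Igfbp3 and Igf1, overlapped in both α conditions, as did those of Igfbp5 and Irs1 in DOX α.

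**Figure D1:**
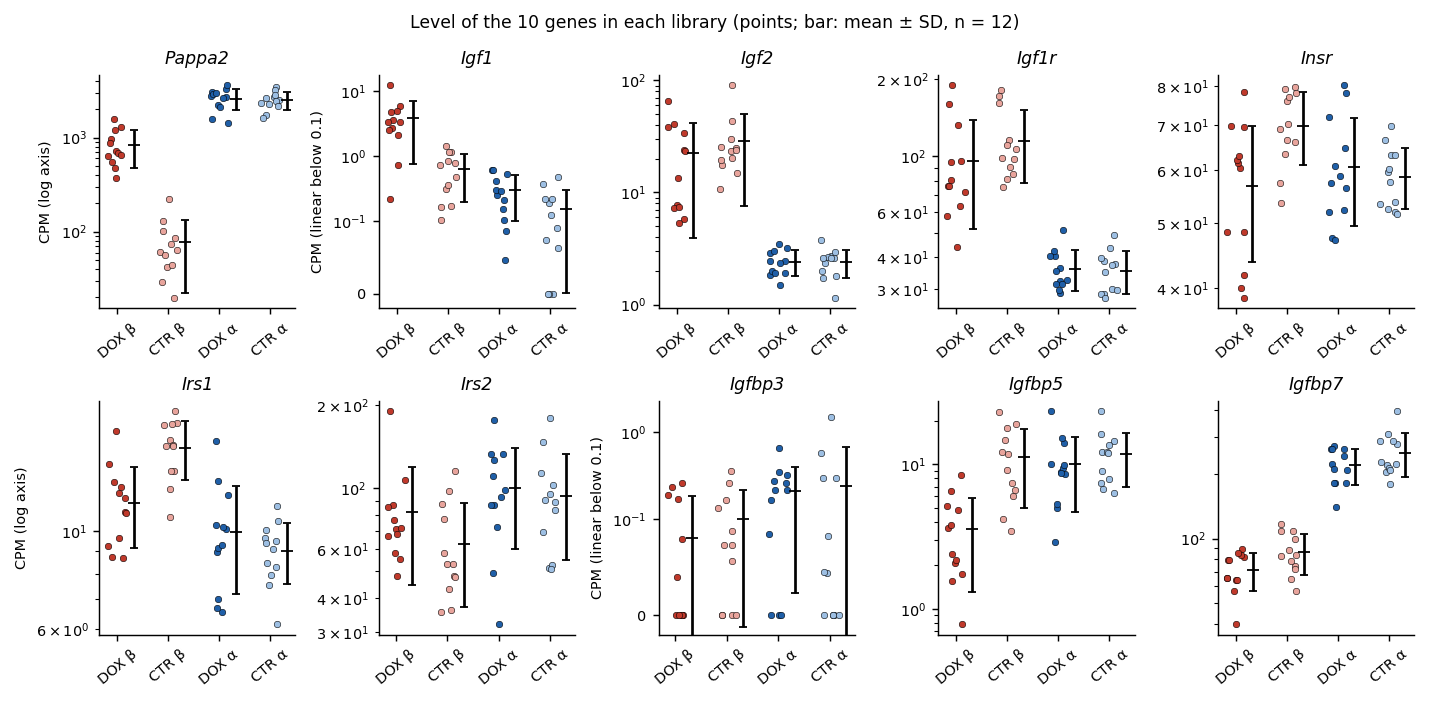
Level of each gene in each of the 48 libraries in CPM on a log axis (for Igf1 and Igfbp3 linear below 0.1), by condition; points are libraries and the bar beside them is the mean ± SD (n = 12). All DOX β points of Pappa2 (369 to 1589 CPM) lie above all CTR β points (19.9 to 222 CPM), while the DOX α and CTR α points cover the same range.

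The first comparison asks what β cells sampled after ablation do with these genes. Of the 9 members that passed the filter on low counts, 3 rose in DOX β against CTR β cells (Pappa2, Igf1 and Irs2) and 4 fell (Insr, Irs1, Igfbp5 and Igfbp7), with Benjamini-Hochberg adjusted p under 0.05 in the quasi-likelihood test of edgeR. Over all 15188 genes tested, 23.8% rose and 23.1% fell. The median log2 fold change of the 9 members was -0.27, against -0.01 over all genes. Igf2 and Igf1r did not pass, and Igfbp3 was filtered out.

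Pappa2, the protease that releases IGF from IGFBP3 and IGFBP5, had the largest change of the set. DOX β libraries held 369 CPM at the lowest, 704 at the median and 1589 at the highest, against 19.9, 62.5 and 222 CPM in CTR β libraries. The groups did not overlap: the lowest DOX β library, ZT20 replicate 1, lay above the highest CTR β library, ZT8 replicate 2. By time, DOX β means were 1006, 1117, 923, 878, 579 and 508 CPM at ZT0, 4, 8, 12, 16 and 20, against 109, 67.2, 132, 65.6, 42.2 and 50.01 CPM in CTR β. The log2 fold change was 3.57 ± 0.22 (SE, edgeR adjusted p = 3.47e-10), and it was 3.96 within the earlier run and 3.41 within the later run. At 835 ± 364 CPM (SD, n = 12), DOX β cells reached 32.05% of the level of DOX α cells, whereas CTR β cells with 77.7 ± 55.2 CPM stood at 3.11% of CTR α cells.

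RNA of other islet cells moved with Pappa2 in β cells. Of the 7 α-cell markers, 5 were tested in DOX β against CTR β and 4 rose, among them the secreted proteins Gc (2.60 ± 0.14) and Ttr (2.05 ± 0.12) in log2 units. Their summed level was 1432 to 3657 CPM in DOX β and 357 to 859 CPM in CTR β. The α-cell transcription factor Irx1 was near 0, at 0.160 ± 0.0903 CPM in DOX β and 0.105 ± 0.0620 CPM in CTR β. Gcg in DOX β cells was 0.0734% of its α-cell level and in CTR β cells 0.0568%, and α-cell RNA in that share would carry 1.91 and 1.42 CPM of Pappa2. All 3 markers of δ and PP cells rose as well, with sums of 569 to 1526 CPM in DOX β and 317 to 1026 CPM in CTR β, and the part of these cells in the Pappa2 level was not tested.

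Igf1, the ligand made mainly by liver and, within tissues, by stromal and myeloid cells, was rare in every condition. It stood at 3.91 ± 3.16 CPM in DOX β and 0.644 ± 0.447 CPM in CTR β (SD, n = 12). DOX β libraries ranged from 0.219 CPM (12 counts) over a median of 3.39 to 12.5 CPM, against 0.104, 0.610 and 1.45 CPM in CTR β. In 10 of 12 DOX β libraries it lay above every CTR β library, and the exceptions were ZT0 replicate 2 and ZT16 replicate 1. The log2 fold change was 2.75 ± 0.45 (adjusted p = 4.61e-05), and 2.18 within the earlier and 2.91 within the later run. All 14 macrophage and dendritic markers rose in the same comparison. With their mean level as a covariate the Igf1 fold change was 0.01 (adjusted p = 0.997). That covariate rises with the treatment, so the fit cannot separate marker RNA from the effect of doxycycline. The part of macrophages and dendritic cells in the Igf1 level was not tested. The DOX β library with the lowest Igf1, ZT0 replicate 2, had the lowest sum of these markers among DOX β libraries (125 CPM), and the one with the highest Igf1, ZT16 replicate 2, had the highest (1575 CPM).

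**Figure D2:**
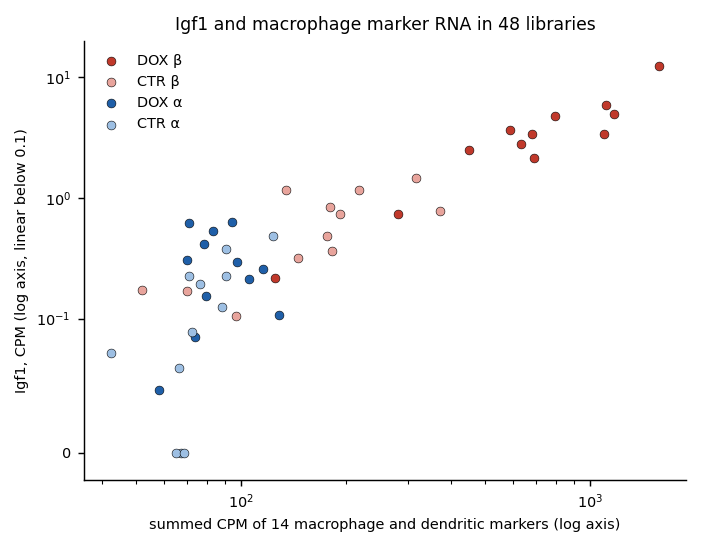
Igf1 level in CPM (y axis, log above 0.1) against the summed CPM of 14 macrophage and dendritic markers (x axis, log), 1 point per library, coloured by condition. The DOX β libraries run from 125 to 1575 CPM of markers and from 0.219 to 12.5 CPM of Igf1, and the α libraries sit at the low end of both axes.

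Igf2, the fetal ligand, did not pass in DOX β against CTR β. It had 5.35, 18.4 and 65.4 CPM at the lowest, median and highest in DOX β and 10.8, 23.8 and 90.8 CPM in CTR β, with wide overlap. The log2 fold change was -0.64 (adjusted p = 0.0833). The runs went opposite ways, with 0.47 (adjusted p = 0.310) in the earlier run and -1.31 (adjusted p = 0.00903) in the later run. The test of the difference between the runs gave -1.73 ± 0.46 (adjusted p = 0.276). The value is uncertain for another reason: a second annotated gene on the same strand, AC013548.1, overlaps Igf2 and held 13.4 unscaled CPM over all libraries, against 12.9 for Igf2. With both summed, the log2 fold change was -0.57 (adjusted p = 0.129). Igf2 alone passed when CTR β ZT4 or ZT12 replicate 1 was left out.

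**Figure D3:**
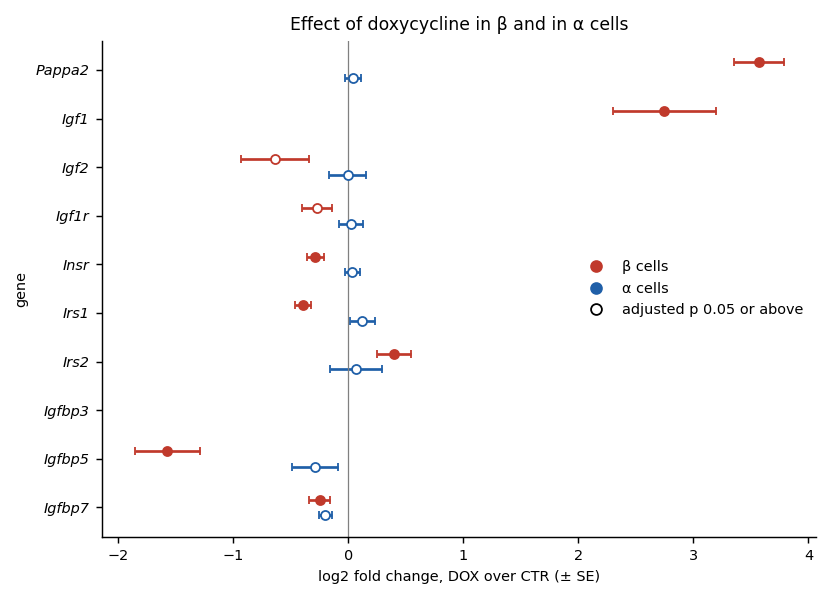
Log2 fold change of DOX over CTR (x axis, ± SE) in β cells (red) and α cells (blue) for each gene tested; filled points have an adjusted p under 0.05. In β cells Pappa2 lies at 3.57 and Igf1, which was not tested in α cells, at 2.75, and the 8 α-cell points lie between -0.29 and 0.12.

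Of the receptors, Insr fell in β cells by a small amount and Igf1r did not pass. Insr, the insulin receptor, had 38.7, 60.9 and 78.5 CPM (lowest, median, highest) in DOX β and 53.6, 69.7 and 79.8 CPM in CTR β. The groups overlapped, with 5 of 12 DOX β libraries below every CTR β library, and the mean was lower in DOX β at all 6 times. The log2 fold change was -0.29 ± 0.07 (adjusted p = 0.00349). It was -0.42 (adjusted p = 0.0115) in the earlier run and -0.18 (adjusted p = 0.229) in the later run. Markers of β-cell identity fell in the same comparison, 5 of 8, with a median log2 fold change of -0.66 over the 8. Ucn3, a peptide of mature β cells, had 311 ± 100.2 CPM in DOX β and 645 ± 109 CPM in CTR β, and the glucose transporter gene Slc2a2 had 543 ± 292 CPM in DOX β and 1012 ± 251.2 CPM in CTR β (SD, n = 12). Their part in the lower levels of Insr, Irs1 and Igfbp7 was not tested. Igf1r, the IGF1 receptor, had 43.8, 78.2 and 189 CPM in DOX β and 75.6, 102 and 182 CPM in CTR β. Its log2 fold change of -0.27 missed the threshold (adjusted p = 0.104), and the mean was lower in DOX β at 4 of 6 times. It passed when DOX β ZT0 replicate 2 or ZT20 replicate 1 was left out.

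The substrates moved in opposite directions. Irs1 had 8.69, 11.4 and 16.8 CPM in DOX β and 10.7, 15.6 and 18.6 CPM in CTR β, and it was lower in DOX β at all 6 times. Its log2 fold change was -0.39 ± 0.07 (adjusted p = 0.000133), with -0.35 in the earlier and -0.41 in the later run. Irs2 had 48.04, 71.2 and 189 CPM in DOX β and 35.4, 53.1 and 115 CPM in CTR β. It was higher in DOX β at 5 of 6 times, the exception being ZT16, and the groups overlapped widely. Its log2 fold change was 0.40 ± 0.15 (adjusted p = 0.0322). This call was not stable: the estimate was 0.46 (adjusted p = 0.1003) in the earlier run and 0.38 (adjusted p = 0.244) in the later run. With macrophage and dendritic markers as a covariate, which itself rises with the treatment, it was 0.05 (adjusted p = 0.905). The Irs2 call was also lost without any 1 of 8 libraries (adjusted p up to 0.0670). These were DOX β ZT4 replicates 1 and 2, ZT8 replicate 1 and ZT20 replicate 2, and CTR β ZT4 replicates 1 and 2, ZT8 replicate 1 and ZT12 replicate 1. Reads of Irs1 and Irs2 cannot be told from those of antisense neighbours, Gm9747 and 9530052E02Rik, because the library kit does not mark strand. Over all libraries these neighbours held 4.09 unscaled CPM against 12.1 for Irs1, and 1.07 against 82.1 for Irs2.

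Irs1 and Irs2 were also the only members whose promoter window held one of the motifs searched, and for that reason their sequences are shown. RefSeq (GRCm38.p6) windows from 250 bases before to 50 after a start were at hand for 9 of the 10 members (12 windows, none for Insr). They were searched on both strands for the E-box CACGTG bound by CLOCK and BMAL1, the insulin response core TGTTTTG, the FOXO core TGTTTAC and the D-box TTATGTAA. Counted from the RefSeq start, the E-box of Irs2 begins at -44 and the insulin response core at -37, with 1 base between them. In Irs1 the E-box begins at -115 and the core at -111, sharing 2 bases, and the core is found again at -32. Capitals mark the matches in these 60-base stretches, both on the minus strand, at chr8:11008939-11008998 for Irs2 and chr1:82291520-82291579 for Irs1:
Irs2: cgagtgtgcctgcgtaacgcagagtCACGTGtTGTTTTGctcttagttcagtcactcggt
Irs1: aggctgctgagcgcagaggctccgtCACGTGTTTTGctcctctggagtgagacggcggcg
Of 32851 such windows in the RefSeq table, 7.15% held CACGTG, 6.28% TGTTTTG, 3.65% TGTTTAC and 0.938% TTATGTAA, and 0.408% (134) held both CACGTG and TGTTTTG. A match describes the letters and not binding.

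Of the 3 binding proteins of the set, Igfbp5 and Igfbp7 were lower in DOX β cells and Igfbp3 was too sparse to test. Igfbp5, an IGF carrier and a target of PAPP-A2, had 0.785, 3.01 and 8.40 CPM in DOX β and 3.44, 10.4 and 23.2 CPM in CTR β. Of the 12 DOX β libraries, 6 lay below every CTR β library, and the mean was lower at all 6 times. The log2 fold change was -1.57 ± 0.28 (adjusted p = 0.000138), with -1.79 within the earlier and -1.49 within the later run. Igfbp7, a carrier with low affinity for IGFs, had 39.9, 72.5 and 89.3 CPM in DOX β and 56.8, 83.9 and 117 CPM in CTR β. It was lower at all 6 times by a log2 fold change of -0.25 ± 0.09 (adjusted p = 0.0286). The fall missed the threshold within each run (-0.13 and -0.32, adjusted p = 0.408 and 0.0804 in the earlier and the later run). It also missed with the macrophage covariate (adjusted p = 0.271), which itself rises with the treatment. The call was lost as well without DOX β ZT0 or ZT4 replicate 2, or without CTR β ZT0, ZT16 or ZT20 replicate 2 or ZT8 replicate 1 (adjusted p up to 0.0648). A neighbour on the other strand, Polr2b, overlaps Igfbp7 with 95.1 unscaled CPM over all libraries, against 145 for Igfbp7. Igfbp3, the main carrier of circulating IGF, was at 0 in 6 DOX β and 4 CTR β libraries and reached 0.255 CPM in DOX β and 0.355 CPM in CTR β.

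The same comparison in α cells asks whether doxycycline changed these genes outside the ablated cell type. None of the 8 members tested passed in DOX α against CTR α, where 0.127% of 14932 genes did (edgeR), and DESeq2 called none of them either. At an unadjusted p under 0.05 there was 1 member, and 1173 of all genes. The member was Igfbp7, with 220 ± 42.0 CPM in DOX α and 253 ± 59.3 CPM in CTR α (log2 fold change -0.20, adjusted p = 0.218). Its mean was lower in DOX α at all 6 times, as it was in β cells. The Igfbp7 effect in β cells minus that in α cells was -0.06 (edgeR, adjusted p = 0.719), so its fall was not shown to differ between the cell types. Pappa2 had 1418, 2745 and 3614 CPM (lowest, median, highest) in DOX α and 1608, 2464 and 3447 CPM in CTR α, a log2 fold change of 0.04 ± 0.07. Insr (0.04), Irs1 (0.12) and Igfbp5 (-0.29) did not pass, with adjusted p of 0.820 or above. Igf1 stood at 0.305 ± 0.204 CPM in DOX α and 0.154 ± 0.154 CPM in CTR α, with 3 CTR α libraries at 0, and was filtered out, as was Igfbp3.

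The effect of doxycycline differed between β and α cells for 4 of the 10 members, when the difference itself was tested over all 48 libraries. Pappa2 had the more positive effect in β cells, by 3.51 ± 0.23 in log2 units (adjusted p = 5.21e-14). Insr (-0.34, adjusted p = 0.0128), Irs1 (-0.53, adjusted p = 0.00251) and Igfbp5 (-1.30, adjusted p = 0.00676) had the more negative effect in β cells. Of all 16207 genes, 12.7% were more positive and 12.8% more negative. Within the runs the Pappa2 difference was 3.85 in the earlier and 3.40 in the later run, and those of the other 3 genes kept their sign but not always their call. Insr gave -0.33 (adjusted p = 0.0969) in the earlier and -0.31 (adjusted p = 0.187) in the later run. Irs1 gave -0.39 (adjusted p = 0.250) and -0.58 (adjusted p = 0.0401), and Igfbp5 gave -1.94 (adjusted p = 0.00172) and -0.86 (adjusted p = 0.297), in the earlier and the later run. The difference for Igf1 was 1.71 (adjusted p = 0.0662), and it passed without DOX β ZT0 replicate 2 or ZT16 replicate 1, CTR β ZT20 replicate 1, DOX α ZT0 or ZT8 replicate 1, or CTR α ZT8 replicate 1. DESeq2 called it as well (1.69, adjusted p = 0.0386).

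A further comparison asks how the 2 cell types differ without ablation. In CTR mice 8 of 9 tested members differed between β and α cells, with 5 higher in β and 3 lower, against 34.2% and 37.3% of 14945 genes. Pappa2 was far lower in β (log2 fold change -5.23 ± 0.23, adjusted p = 9.29e-15), and Igfbp7 (-1.58 ± 0.09) and Irs2 (-0.63 ± 0.16, adjusted p = 0.00142) were lower too. Higher in β were Igf2 (3.38 ± 0.26), Igf1 (1.89 ± 0.47), Igf1r (1.60 ± 0.12), Irs1 (0.72 ± 0.07) and Insr (0.21 ± 0.05, adjusted p = 0.00165). For Igf2, Igf1r, Pappa2 and Igfbp7 the 12 CTR β libraries and the 12 CTR α libraries did not overlap. How many of all genes show no overlap was not counted, and 34.2% and 37.3% of them passed the threshold. Igfbp5 did not pass (-0.19, adjusted p = 0.527), with 11.3 ± 6.30 CPM in CTR β and 11.7 ± 4.82 CPM in CTR α. Its estimate was 0.47 (adjusted p = 0.162) in the earlier run and passed in the later run (-0.68, adjusted p = 0.0265). The Igf1 estimate was -0.98 (adjusted p = 0.336) with macrophage and dendritic markers as a covariate. Of these markers 11 of 13 tested were higher in CTR β, so this fit cannot separate their RNA from the cell type. The Irs2 difference missed the threshold in the earlier run alone (-0.46, adjusted p = 0.1003).

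In DOX mice 6 of 9 members differed between β and α cells, 3 higher and 3 lower, against 35.6% and 35.7% of 15370 genes. Igf1 (3.62), Igf2 (2.76) and Igf1r (1.32) were higher in β cells, and Pappa2 (-1.68 ± 0.15), Igfbp7 (-1.61) and Igfbp5 (-1.44 ± 0.30) were lower. Igf1 again lost its call with the macrophage covariate (-1.56, adjusted p = 0.379). All 14 of these markers were higher in DOX β than in DOX α, with sums of 125 to 1575 against 58.2 to 128 CPM. The covariate thus nearly follows the cell type, and this fit cannot tell them apart. Irs1 (0.23, adjusted p = 0.0519), Irs2 (-0.28, adjusted p = 0.212) and Insr (-0.10) did not pass. In the earlier run alone Irs2 passed (-0.44, adjusted p = 0.0237), and in the later run it did not (-0.12, adjusted p = 0.753). With the replicate number as a block, which from ZT4 to ZT20 also marks the run, Irs1 passed (0.25, adjusted p = 0.0371). It passed as well without DOX β ZT8 replicate 1, ZT20 replicate 1 or ZT20 replicate 2, or DOX α ZT12 replicate 2 or ZT20 replicate 1. These comparisons share libraries with the ones above, so their values are set side by side only.

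The study's design also asks about time of day. An effect of doxycycline that changed over the 6 times was called for none of the members, 0 of 9 in β and 0 of 8 in α cells, and for 0% of all genes in both cell types (edgeR). No member had an unadjusted p under 0.05 in these tests, and DESeq2 called none of them. Over all genes, 394 in β and 196 in α cells had an unadjusted p under 0.05, and DESeq2 called 10 and 5. A difference of the effect between the runs was called for 0 of 9 members in β cells (1, Igf2, at an unadjusted p under 0.05) and 0 of 8 in α cells (none), against 0.0461% and 0.114% of all genes, and DESeq2 called none of the members. Over all genes, 988 in β and 791 in α cells had an unadjusted p under 0.05 for this difference.

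Rhythms were fitted as a cosine with a period of 24 h to the 12 libraries of each condition. In DOX β cells 2 of 9 members passed, against 11.6% of 13613 genes. Igf1r had an amplitude (peak height above the fitted mean) of 0.69 ± 0.14 log2 units with a peak at ZT 20.8 ± 0.777 h (adjusted p = 0.0284). Its means in DOX β were 118, 79.0, 50.9, 74.3, 106 and 143 CPM at ZT0 to ZT20, lowest at ZT8 and highest at ZT20. Pappa2 in DOX β had an amplitude of 0.54 ± 0.13 with a peak at ZT 6.26 ± 0.960 h (adjusted p = 0.0480). The Igf1r call was lost when the DOX β library ZT12, ZT16 or ZT20 replicate 1 or either ZT8 library was left out (adjusted p up to 0.116). The Pappa2 call was lost without any 1 of 9 libraries (adjusted p up to 0.141) and stayed only without ZT0 replicate 1, ZT0 replicate 2 or ZT8 replicate 2. Neither passed with 6 time levels or without the run term.

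In CTR β cells none of 8 members passed, against 2.17% of 13302 genes. At an unadjusted p under 0.05 there were 4 members, and 2734 of all genes. DESeq2 called 4 members, and the share of all genes that it called rhythmic is not reported here. Igf1r there had an amplitude of 0.47 ± 0.10 with a peak at ZT 18.9 (adjusted p = 0.0598), and its means of 107, 102, 78.2, 87.8, 177 and 136 CPM were lowest at ZT8 and highest at ZT16. Irs2 had an amplitude of 0.61 ± 0.14 with a peak at ZT 16.6 (adjusted p = 0.0737), with means of 50.7, 39.7, 44.2, 73.0, 87.2 and 81.3 CPM, low in the light phase and high in the dark phase. In DOX β cells Irs2 did not pass either (0.45 ± 0.16, adjusted p = 0.168). Its DOX β means were 51.7, 71.2, 63.1, 76.9, 80.8 and 148 CPM at ZT0 to ZT20.

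In α cells edgeR called Pappa2 rhythmic in both conditions and no other member, while DESeq2 called 3 members in DOX α, with Igfbp5 and Igfbp7 besides Pappa2, and 1 in CTR α. The share of all genes that DESeq2 called rhythmic is not reported here. In DOX α cells 1 of 8 members passed, against 2.82% of 13280 genes, and in CTR α cells 1 of 8, against 4.49% of 13349 genes. The Pappa2 amplitude was 0.45 ± 0.09 with a peak at ZT 1.92 ± 0.776 h in DOX α (adjusted p = 0.0448) and 0.29 ± 0.06 with a peak at ZT 2.94 ± 0.802 h in CTR α (adjusted p = 0.0404). Means in DOX α were 3439, 2935, 2789, 1897, 1756 and 2823 CPM at ZT0 to ZT20, against 3076, 2783, 2654, 2096, 1938 and 2431 CPM in CTR α. Both courses were highest at ZT0 and lowest at ZT16. Both ZT0 libraries are from the later run, whereas each other time mixes both runs. Pappa2 averaged 2811 CPM in the later and 2320 CPM in the earlier run in DOX α. In CTR α it averaged 2792 and 2082 CPM in the later and the earlier run. The part of the run in these raw ZT0 means was not tested. Neither call passed with 6 time levels in place of the cosine (adjusted p = 0.366 in DOX α and 0.382 in CTR α) or without the run term (0.0525 in DOX α and 0.107 in CTR α). The calls were close to the threshold: the one in DOX α stayed without ZT4 replicate 2 or ZT8 replicate 1 only (adjusted p up to 0.126) and the one in CTR α stayed without ZT0 replicate 1 only (adjusted p up to 0.114).

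**Figure D4:**
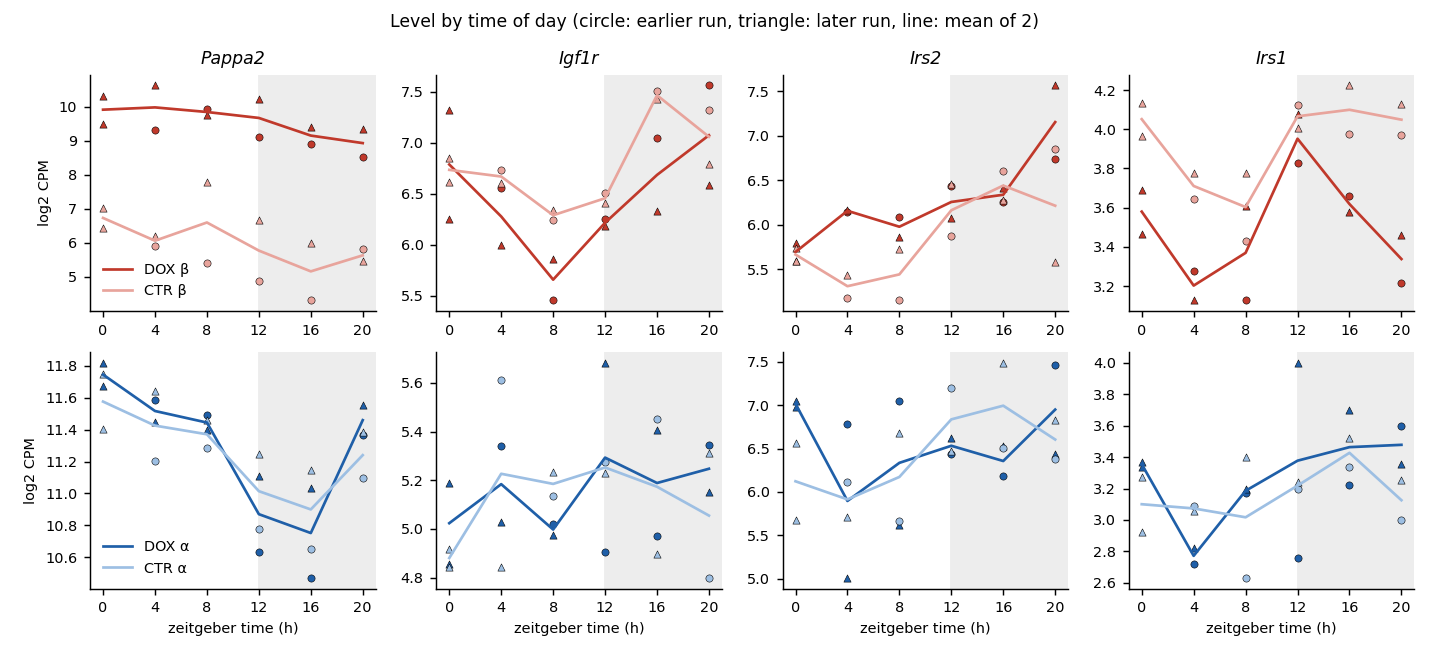
Log2 CPM by zeitgeber time in β cells (upper row) and α cells (lower row) for Pappa2, Igf1r, Irs2 and Irs1; circles are libraries of the earlier run, triangles of the later run, and lines join the means of the 2 libraries per time; the dark phase is shaded. The 2 lines of Pappa2 stay apart at all 6 times in β cells and run together in α cells, with the lowest means at ZT16.

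No difference of rhythm was called for any member: 0 of 9 for DOX against CTR in β cells, 0 of 8 for DOX against CTR in α cells and 0 of 9 for β against α in CTR mice, with 0% of all genes called in each (edgeR). DESeq2 called none of the members either. At an unadjusted p under 0.05 there were 0, 0 and 1 member, the last being Igf1r between CTR β and CTR α (adjusted p = 0.450). Over all genes there were 796, 441 and 946. A rhythm called in one condition and not in another is therefore not shown to differ.

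Other genes of the pathway were described in DOX β against CTR β through 4 lists, each to be read against the 23.8% of all genes that rose and the 23.1% that fell. Of the 11 further genes of the IGF axis 8 were tested, 5 rose and 2 fell, with a median log2 fold change of 0.47 against -0.01 over all genes. The risers included the stanniocalcin Stc1 (2.83 ± 0.46) and its relative Stc2 (0.76, adjusted p = 0.0209), which belong to a family that inhibits PAPP-A proteases. The carrier Igfbp4 (2.27 ± 0.42), a target of PAPP-A, and Pappa itself (1.99 ± 0.47) rose too. Stellate and fibroblast markers moved with them: 4 of 8 tested rose and none fell (median 1.47), with sums of 1.12 to 383 CPM in DOX β and 0.435 to 53.6 CPM in CTR β, and their part in these rises was not tested. Insrr, the receptor related to the insulin receptor, fell (-0.81 ± 0.09), as did Igfals, the third member of circulating IGF complexes (-0.55).

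Of 16 adaptors and brakes of the receptors 14 were tested, 3 rose and 3 fell (median 0.00), against 23.8% and 23.1% of all genes. Enpp1, an inhibitor of the insulin receptor (1.80 ± 0.32), Sh2b2, an adaptor of that receptor (1.90 ± 0.40), and Grb10, a brake on both receptors (0.38 ± 0.11), rose. Shc1, the adaptor towards the RAS pathway, fell (-0.27 ± 0.05). Among 22 genes of PI3K, AKT and mTOR, all tested, 10 fell and 1 rose (median -0.16), against 23.1% and 23.8% of all genes. The kinases Akt2 (-0.38 ± 0.05) and Akt1 (-0.35 ± 0.05) fell. Rictor, a subunit of mTOR complex 2, fell as well (-0.44 ± 0.08). The brakes Tsc1 (-0.50 ± 0.10) and Phlpp2 (-0.50 ± 0.09) were among the genes that fell, and the 1 that rose was Rheb, the activator of mTOR complex 1 (0.20 ± 0.06).

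Of 15 FOXO factors and FOXO targets, all tested, 7 fell and 2 rose (median -0.19), against 23.1% and 23.8% of all genes. Txnip, which binds thioredoxin and is induced by glucose, rose (2.04 ± 0.25), and Foxo6 (-0.67 ± 0.12), Klf15 (-0.60 ± 0.12) and Cited2 (-0.52 ± 0.11) fell. In DOX α against CTR α no gene of the 4 lists passed, of 7, 14, 22 and 15 tested.

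Across the 24 group means (cell type, treatment and time), which share the difference between the cell types, the genes closest to each member among 16207 were found by Pearson's r of log2 CPM. For Pappa2 they were Pdzrn3 (0.980), Dync1i1 (0.976) and Lama5 (0.972). For Igf1 they were the MHC class II genes H2-Aa (0.960) and H2-Ab1 (0.957) and the myeloid receptor Clec12a (0.954). For Igf1r they were Aida (0.977), Mars (0.964) and Ncoa4 (0.959), for Insr Cdh2 (0.921), Col4a3bp (0.908) and Bcl9 (0.897), and for Irs1 Pde8a (0.910), Tshz1 (0.909) and Tbc1d5 (0.909). Irs2 had 1 gene above the rest, the kinase Sik1, a target of cyclic AMP (0.863), before Ccnk (0.760) and Asap1 (0.751). For Igf2 they were Rasgrf1 (0.964), Atp6v1a (0.964) and Asb11 (0.963), for Igfbp5 Dph6 (0.901), Polr3f (0.881) and Tprgl (0.869), and for Igfbp7 Rragb (0.983), Myl12b (0.979) and Npc2 (0.979). The sparse Igfbp3 had none above 0.719 (Plvap, an endothelial gene).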

How the data were processed

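RNA of sorted α and β cells was sequenced as unstranded polyA libraries (TruSeq RNA v2), per the labels' protocols. Per the submitters' processing notes bcl2fastq, STAR and GRCm38 were used, with versions not given; the counting program is not given in the sources used here. The deposited estimated counts per gene are not all whole, and 99.7 to 100% of the whole values up to 20 are even (tolerance 1e-06), so that 1 counted unit appears to add 2; they were rounded to whole numbers. The deposited RPKM values equal these counts divided by library total and gene length and served for the order of levels alone.

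Tests used R 4.3.3 with edgeR 4.0.16 and limma 3.58.1: quasi-likelihood fits with TMM scaling, genes filtered by a minimum count of 10 and total of 15, sampling time (6 levels) and sequencing run as terms, and Benjamini-Hochberg adjustment over all genes tested with a threshold of 0.05. The procedure was tested on simulated data. DESeq2 1.42.0, other scaling and filters, no run term, each run alone, marker covariates, a replicate block and leaving out each library were the alternatives. Figures were drawn with matplotlib 3.10.9. Rhythms replaced the time levels by a cosine of 24 h. Libraries of 1 group differed beyond sampling noise (chi-square per degree of freedom of at least 18.75), so none was a duplicate deposit.

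Replicate 1 minus replicate 2 differences of β and α libraries correlated positively at all 6 times. The correlation was 0.177 to 0.481 in DOX mice and 0.0398 (ZT20) to 0.395 (ZT4) in CTR mice. From ZT4 to ZT20 the replicate number also marks the run, so these values cannot tell pairing from a run effect. The labels do not say what the number marks. Between DOX and CTR libraries the correlation from ZT4 to ZT20 was 0.0182 to 0.308 in β and 0.0711 to 0.307 in α cells. At ZT0, where both replicates are from the later run, it was -0.387 in β and -0.482 in α cells. Equal numbers thus did not go together between DOX and CTR at ZT0. The named genes are the 10 members, the leading genes of each pathway list by p and the 3 genes most like each member; some list genes are not reported here, though the list counts include them. Members, lists and tests were chosen with earlier results of these data known. Promoter sequences are from RefSeq (GRCm38.p6).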

Additional observations from a re-analysis of the deposited data

Results flagged for a closer look

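For 4 genes the effect of doxycycline differed between the cell types in the test of that difference (edgeR, β effect minus α effect, log2 units). The difference was 3.51 for Pappa2, -0.34 for Insr, -0.53 for Irs1 and -1.30 for Igfbp5. Pappa2 was higher in DOX β than in CTR β cells at 6 of 6 times, and the other 3 genes were lower in DOX β at 6 of 6 times. Groups of 2 libraries are too small for a search for single libraries that stand apart.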

How the results depend on the processing

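The number of members past the threshold stayed within 1.5 times its main value in most alternatives. For DOX against CTR in β cells it was 7, with 5 to 8 when 1 library was left out and 4 with the macrophage and dendritic covariate. For the difference between the cell types it was 4, with 4 to 5 when 1 library was left out and 2 in the earlier run alone, an alternative chosen after seeing the data, as were the crossed ZT0 numbers, the summed Igf2 counts and leaving out the 3 acinar-rich libraries. Rhythm calls were the least stable. In DOX β cells 2 members became 0 with 6 time levels, without the run term or with the replicate block, 1 without the filter and 0 to 3 when 1 library was left out. In CTR β cells 0 became 4 by DESeq2 and 0 to 2 when 1 library was left out. In DOX α cells 1 became 0 with 6 time levels or without the run term, 3 by DESeq2 and 0 to 1 when 1 library was left out, and in CTR α cells 1 became 0 with 6 time levels or without the run term and 0 to 2 when 1 library was left out. The cause was not tested.

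Some estimates changed sign. With the macrophage covariate β against α gave -0.98 for Igf1 in CTR and -1.56 in DOX mice. Igfbp5 in CTR β against CTR α was 0.47 in the earlier run, 0.12 with the macrophage covariate and 0.29 with the stellate covariate. In the earlier run Igf2 in DOX against CTR β cells was 0.47, and the differences between cell types were 0.44 for Igf2 and 0.15 for Igfbp7. In the later run the Igf2 difference was -1.30 (adjusted p = 0.0373), and without the run term the Insr difference missed the threshold (-0.33, adjusted p = 0.0666). In DOX against CTR α cells Pappa2 was -0.0021 in the later run, Insr -0.088 and Igfbp5 0.16 in the earlier run, and Insr ran from -0.0016 to 0.071 when 1 library was left out. With the replicate block, whose numbers are not known to pair DOX with CTR, Irs2 in β cells was 0.41 (adjusted p = 0.0618), 0.41 (adjusted p = 0.0571) with the ZT0 numbers crossed, and Igf1r was -0.30 (adjusted p = 0.0380). Over all genes the 19 calls in α cells became 125 by DESeq2, 56 without the filter, 12 without the run term and 7 with the block. Depth limits Igf1 in CTR β cells, at 4 to 90 counts, and Igfbp3, at 0 to 72 counts.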
